A study of Mus musculus with 4 samples.

Results

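The integrin and laminin chains expressed in mouse mammary tissue were compared between *miR-21+/+* and *miR-21-/-* mice. Members were the genes whose symbol is that of an integrin alpha chain, an integrin beta chain or a laminin chain. The rule used the symbol alone, but these gene families were chosen with earlier results of these data known. The rule found 37 genes among 22483 loci with a gene name: 18 integrin alpha chains, 8 integrin beta chains and 11 laminin chains. Where a symbol stood on several rows of the table, the row with the highest mean level was used, which applied to *Itgae* and *Itga2b*.

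The study compared mice with and without miR-21, a microRNA present in mammary epithelium, to learn whether the gland needs it and which transcripts respond. Mammary tissue came from 4 virgin female mice of 2 months on a mixed 129SV, FVB/N and C57BL/6 background. Of these mice, 2 carried both wild-type alleles and 2 were homozygous for a deletion of miR-21 that had been made earlier and is not described further in the sources used here. Poly(A) RNA was sequenced, and each transcript level is given as FPKM, fragments scaled to transcript length and to the mapped reads of the library, a unit that allows levels of different genes to be set side by side. The authors' table holds 1 value per genotype that combines its 2 mice. There is therefore no spread between mice, no test was possible, and each difference below is a description of these combined libraries. The depth of the libraries is unknown.

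Integrins are receptors built from an alpha and a beta chain that hold cells to the matrix or to other cells and signal through adaptors at their cytoplasmic tails. Laminins are trimers of an alpha, a beta and a gamma chain, and they form the sheet of the basement membrane on which epithelium, muscle, nerve, fat cells and vessels rest. In the mammary gland the myoepithelial cells lie on this membrane and supply much of it, and laminin bound through integrins containing the beta1 chain is known to support alveolar differentiation and milk protein expression.

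The summed expression of the integrin and laminin chains was close in both genotypes. The 37 levels summed to 712 FPKM in *miR-21+/+* and 717 FPKM in *miR-21-/-*. All 37 genes were above 0 in both genotypes, and 26 had a log2 ratio (*miR-21-/-* over *miR-21+/+*) of less than 0.5 in either direction. The share of all named loci within that limit was not computed. Among chains with a mean above 1 FPKM, 19.4% were at least 1.5-fold higher and 8.33% lower. The shares of all named loci with such a mean were 4.99% and 5.76%. By chain class the median log2 ratio was 0.02 for the integrin alpha chains, 0.09 for the integrin beta chains and 0.19 for the laminins, against a median of -0.03 over all named loci with a mean above 1 FPKM. Thus the sums were alike, and the differences lay in single chains, which the plot of levels by genotype shows.

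**Figure D1:**
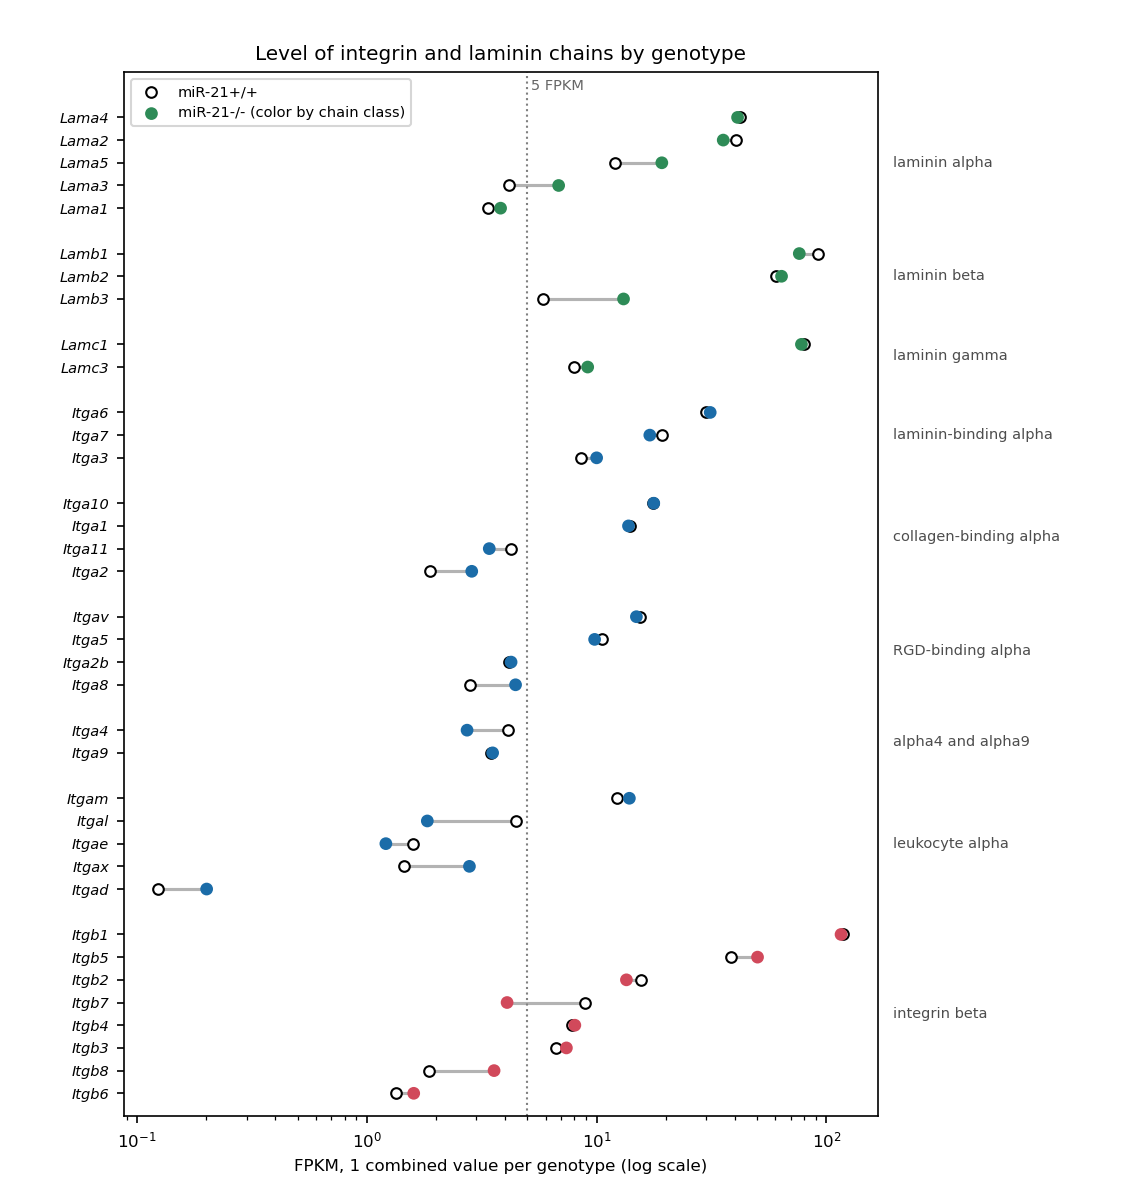
Level of 36 of the 37 chains in FPKM (log axis), with 1 open point for *miR-21+/+* and 1 filled point for *miR-21-/-*, joined by a line, and grouped by the role of the chain. Most pairs of points lie close together. The long lines are those of *Lamb3*, *Lama3*, *Lama5*, *Itgal*, *Itgb7*, *Itgax*, *Itgb8*, *Itga8*, *Itga2* and *Itga4*, and of *Itgad* at the lowest level.

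Genes above 5 FPKM in either genotype, the minimum used by the study, included 24 of the 37 chains. *Lama3* and *Itgb7* passed this minimum only through the genotype in which they were higher. Among the 24 chains, *Lamb3* was at least 2-fold higher in *miR-21-/-* tissue and *Itgb7* at least 2-fold lower. Of the 9651 named loci above the same minimum, 1.25% were 2-fold higher and 1.42% were 2-fold lower. At a limit of 1.5-fold, *Lamb3*, *Lama3* and *Lama5* were higher (12.5% of the 24) and *Itgb7* was lower (4.17%), where 3.81% of the named loci were higher and 4.27% were lower.

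With a minimum on the mean of both genotypes instead, which favours neither, 36 chains were above 1 FPKM and *Itgad* was not. Here 1 chain was 2-fold higher (*Lamb3*) and 2 were 2-fold lower (*Itgal* and *Itgb7*), where 1.71% and 2.14% of 13063 named loci were. At 1.5-fold, 7 of the 36 chains were higher, or 19.4%, and 3 were lower, or 8.33%. The corresponding shares of all named loci were 4.99% and 5.76%. The 7 higher chains were *Lamb3*, *Itgb8*, *Itgax*, *Lama3*, *Lama5*, *Itga8* and *Itga2*, and the 3 lower chains were *Itgal*, *Itgb7* and *Itga4*. How a chain compares with loci of like level is a further measure, since low levels scatter more. Between 5 and 20 FPKM the ratios of 5855 loci ran from -0.45 at the 5th percentile to 0.47 at the 95th, with *Lamb3*, *Lama3* and *Lama5* above that range and *Itgb7* below it. Between 1 and 5 FPKM the same range was -0.96 to 0.86 over 3714 loci, with *Itgax* and *Itgb8* above it and *Itgal* below. *Itga2*, *Itga4* and *Itga8* lay within it, and none of the 8 chains above a mean of 20 FPKM left the range of its level.

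**Figure D2:**
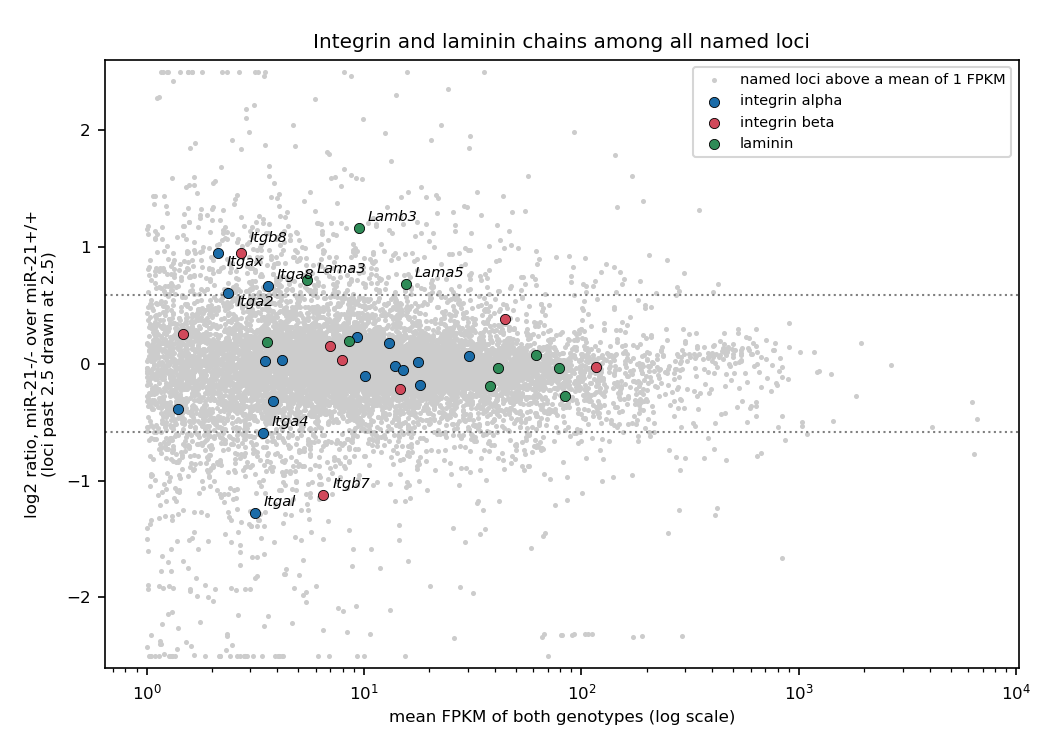
Log2 ratio of *miR-21-/-* over *miR-21+/+* against the mean FPKM of both genotypes (log axis), with grey points for named loci, colored points for 35 of the chains and dotted lines at 1.5-fold. The scatter of all loci narrows from low to middle levels, and the chains past 1.5-fold are named.

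These ratios are taken as deposited. If the FPKM of all loci were set to equal sums, every log2 ratio would be lower by 0.63, since the summed level of loci without a name was higher in *miR-21-/-*. Equal sums over the named loci would raise every ratio by 0.099. The first scaling turns *Itga2* to -0.02 and takes *Lama3* to 0.09, *Lama5* to 0.05 and *Itga8* to 0.03, while *Lamb3* stays at 0.53. Any ratio between 0 and 0.63 given below, such as that of *Itgb5*, is below 0 under that scaling. The order of the chains is the same under each scaling.

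**Figure D3:**
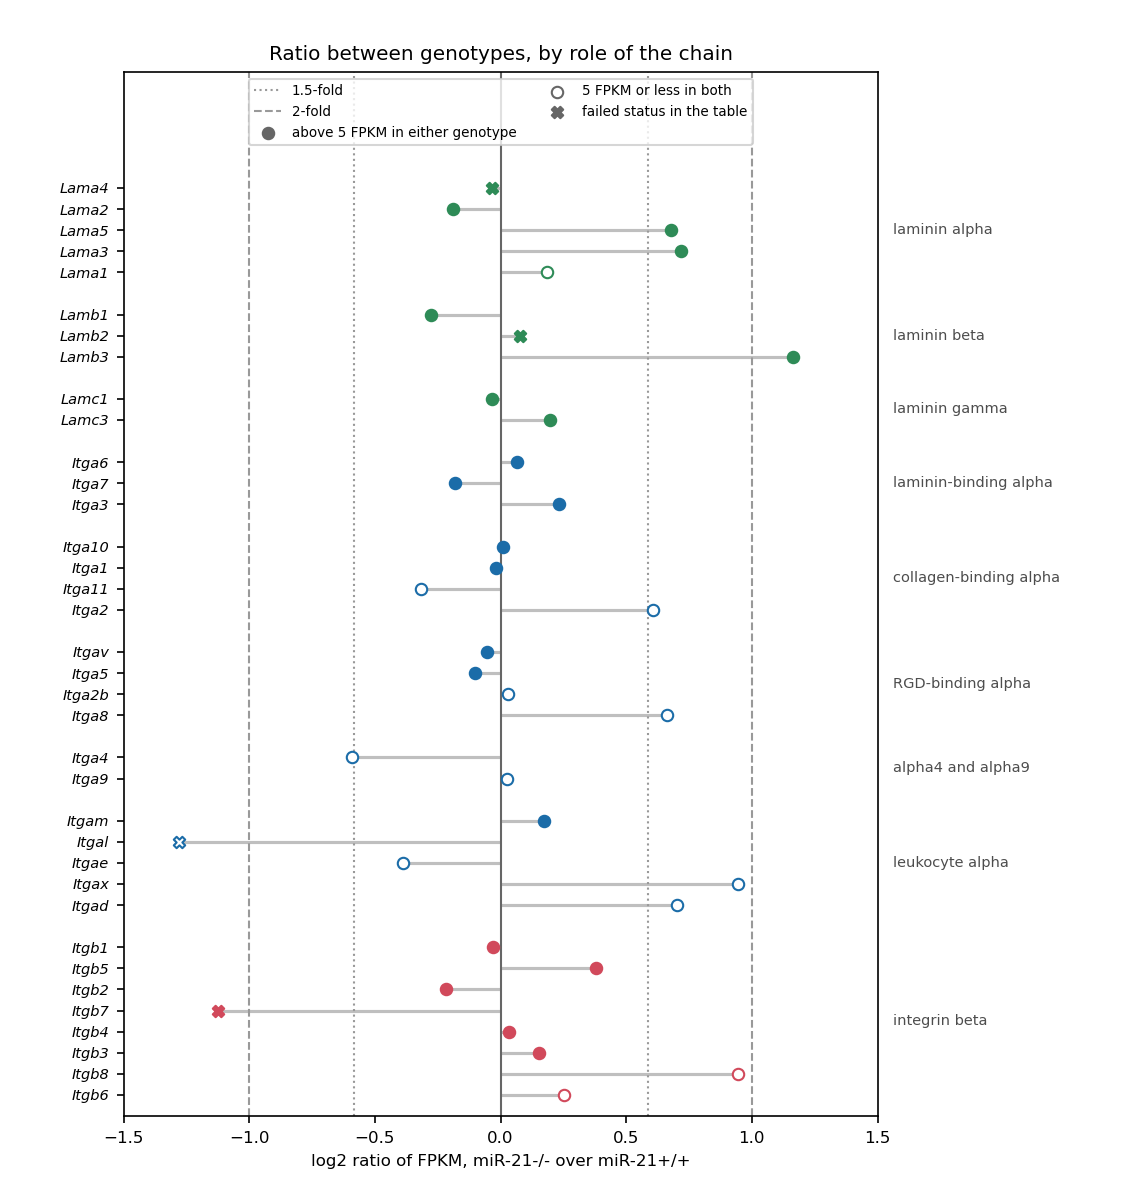
Log2 ratio of *miR-21-/-* over *miR-21+/+* FPKM for 36 of the 37 chains, grouped by role, with dotted lines at 1.5-fold, dashed lines at 2-fold, open symbols for chains at 5 FPKM or less in both genotypes and crosses for loci marked as failed in the authors' table. *Lamb3*, *Lama3* and *Lama5* lie to the right and *Itgal* and *Itgb7* to the left; if sums over all loci were made equal, all points would move left by 0.63 and 15 of the 37 chains would change sign, *Itga2* being the one past 1.5-fold that would.

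Since miR-21 is the gene removed, sites for it among the chains are shown first. A microRNA pairs through its seed, bases 2 to 8, with complementary sites in 3′ UTRs, and transcripts with such sites can be higher where the microRNA is absent. The mature strand from RefSeq (GRCm38.p6, chr11:86584120-86584141, minus strand) is printed with its seed in capitals.
mmu-miR-21a-5p: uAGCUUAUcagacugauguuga
The matching letters in a transcript are ATAAGCT, and the match is called an 8mer where an A follows. All 37 chains had an annotated 3′ UTR (GENCODE vM1 on NCBIM37), and 4 of them, or 10.8%, held such a match. Of all 19915 genes with a 3′ UTR, 1214 or 6.1% held one. The median 3′ UTR was 980 bases long among the chains and 893 bases among all genes. The 4 chains with a match had 3′ UTRs of 2011 to 6508 bases, all longer than both medians. The part of UTR length in these shares was not tested. The 4 sites are given from the mRNA strand in mm9 (NCBIM37) coordinates, each with the matched letters in capitals, to show which chains could be compared with the rest. They lie at chr2:83643942-83643971 (plus strand), chr13:115748995-115749024 (minus), chr2:79168877-79168906 (plus) and chr12:120398522-120398551 (minus), in the order printed.
Itgav: cagttgacttcATAAGCTActgaagacttt
Itga1: tctgctgtaacATAAGCTtgcagattgctc
Itga4: tagaattttatATAAGCTttaaaatgtagt
Itgb8: agaaattgcccATAAGCTtcaagccaataa
Only *Itgav* had the 8mer. The chains with a site did not share a direction. *Itgb8* was 1.86 FPKM in *miR-21+/+* and 3.58 FPKM in *miR-21-/-*, with a log2 ratio of 0.95, and *Itga4* went the other way, from 4.11 to 2.73 FPKM (-0.59). *Itgav* (15.5 and 14.9 FPKM) and *Itga1* (13.9 and 13.8 FPKM) were nearly level. The median log2 ratio was -0.04 for the 4 chains with a site and 0.07 for the 33 without. A match is a run of letters in the UTR, and binding was not measured.

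The laminin alpha chains give each trimer its receptor binding end. *Lama4*, of vessel and fat cell basement membranes, was 42.0 FPKM in *miR-21+/+* and 41.1 FPKM in *miR-21-/-*, on a locus marked as failed by the authors' program. *Lama2*, the chain of muscle and nerve basement membranes, was 40.6 and 35.6 FPKM (log2 ratio -0.19). Those were the most abundant alpha chains, and neither was past 1.5-fold. *Lama5*, found under many epithelia and in vessels, was 12.01 FPKM in *miR-21+/+* and 19.2 FPKM in *miR-21-/-*, 1.60-fold higher. *Lama3*, the chain of stratified and glandular epithelia, was 4.15 and 6.84 FPKM, 1.65-fold higher. *Lama1*, best known from the embryo, was 3.36 and 3.82 FPKM (0.19). The order of the 5 levels was the same in both genotypes, with *Lama4* first and *Lama1* last.

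Among the beta chains *Lamb3* stood apart from *Lamb1* and *Lamb2*. *Lamb3* (chr1:195128158-195170149 in mm9, plus strand) was 5.85 FPKM in *miR-21+/+* and 13.1 FPKM in *miR-21-/-*, 2.24-fold higher. *Lamb1*, the beta chain of most tissues, was 92.3 and 76.2 FPKM (-0.28). *Lamb2*, which is prominent in vessels, muscle and nerve, was 60.5 and 63.8 FPKM (0.08), on a locus that also carries *Usp19* and was marked as failed. *Lamb3* was the least abundant beta chain in both genotypes. Of the gamma chains, *Lamc1*, the partner in most trimers, was 79.8 and 77.9 FPKM (-0.03), and *Lamc3* was 7.99 and 9.14 FPKM (0.19).

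*Lama3* and *Lamb3* are found together in the laminin that anchors basal epithelial cells. Both were higher in *miR-21-/-*, by 0.72 and 1.16 on the log2 scale. *Lama2*, *Lama4*, *Lamb1*, *Lamb2* and *Lamc1*, the 5 most abundant laminin chains, ran from -0.28 to 0.08. In percent of the summed alpha chain level, *Lama5* went from 11.8% to 18.05% and *Lama3* from 4.07% to 6.42%, while *Lama2* went from 39.7% to 33.4%. *Lamb3* made up 3.69% of the beta chain level in *miR-21+/+* and 8.55% in *miR-21-/-*. These shares do not depend on any scaling between the genotypes. The class sums differed little, being 102 and 107 FPKM for alpha and 159 and 153 FPKM for beta chains.

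**Figure D4:**
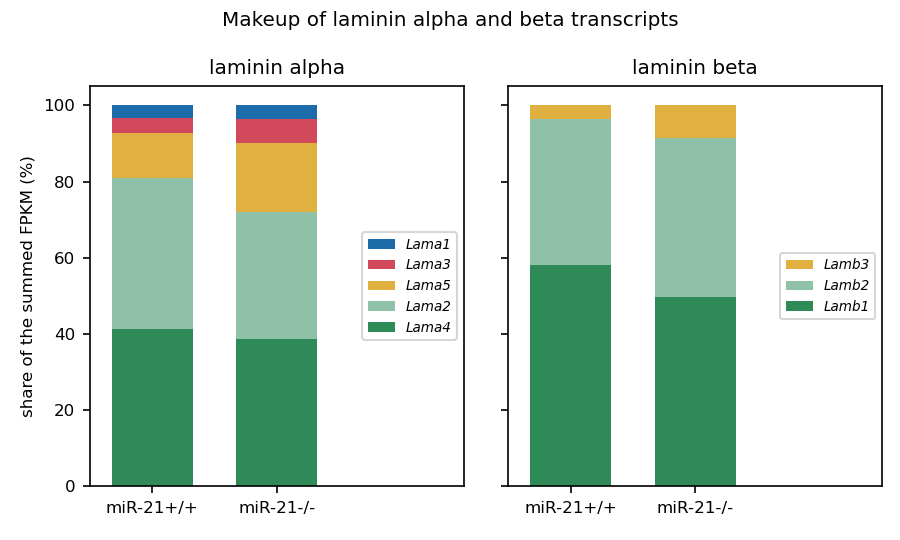
Share of the summed FPKM of laminin alpha and beta chains (percent, 1 stacked bar per genotype) held by each chain. *Lama5*, *Lama3* and *Lamb3* take larger shares in *miR-21-/-*, *Lamb3* 8.55% against 3.69% of the beta chains.

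Most markers of the epithelium itself were also higher in *miR-21-/-* tissue. In whole tissue, more cells of a type and more RNA per cell cannot be told apart. Of all named loci above 5 FPKM, 3.81% were at least 1.5-fold higher. All 8 markers of basal myoepithelium were higher, 5 of them by at least 1.5-fold, and their sum was 355 FPKM in *miR-21+/+* and 570 FPKM in *miR-21-/-*. Examples are *Oxtr*, the oxytocin receptor (17.5 and 48.7 FPKM), *Myh11*, smooth muscle myosin (26.7 and 45.5 FPKM), and *Krt14*, a basal keratin on a merged locus (22.9 and 38.7 FPKM). The most abundant, *Acta2*, smooth muscle actin, was 222 and 341 FPKM and made up most of that sum. As smooth muscle genes, *Acta2* and *Myh11* are not confined to the epithelium. Of 10 luminal markers 8 were higher, 4 of them by at least 1.5-fold, and the sums over all 10 were 674 and 907 FPKM. The 2 lower ones were *Esr1* (17.7 and 12.5 FPKM, -0.50, on a locus marked as failed) and *Foxa1* (29.5 and 23.2 FPKM, -0.35). The higher ones included *Elf5*, a factor of the alveolar lineage (18.6 and 36.0 FPKM), and *Krt8*, a luminal keratin (119 and 197 FPKM). The most abundant, the keratin *Krt19*, was nearly level (223 and 247 FPKM, 0.15), and no marker of either list was at 0. The median log2 ratio was 0.66 for basal and 0.52 for luminal markers, beside 0.72 for *Lama3* and 1.16 for *Lamb3*. With equal sums over all loci, 4 of the 8 basal and 4 of the 10 luminal markers were higher. The part of these marker levels in the laminin result was not tested.

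The integrin chains that bind laminin were closer to level than *Lamb3*. *Itga6*, which pairs with *Itgb4* in hemidesmosomes and otherwise with *Itgb1*, was 29.8 FPKM in *miR-21+/+* and 31.2 FPKM in *miR-21-/-* (0.07). Its partner *Itgb4* was 7.85 and 8.04 FPKM (0.03). *Itga3*, the other epithelial laminin receptor chain, was 8.52 and 10.001 FPKM (0.23). All 3 were below 1.5-fold and below the median of the basal markers. *Itga7*, the laminin receptor chain of muscle, was 19.4 and 17.0 FPKM (-0.18). Beside it, all 11 skeletal muscle markers were higher in *miR-21-/-*, with a median of 0.89 and sums of 1160 and 1942 FPKM, among them *Acta1*, the most abundant (328 and 526 FPKM), *Mb*, myoglobin (2.07 and 7.54 FPKM), and the fast myosin *Myh1* (8.44 and 23.4 FPKM). *Itga7* was thus not higher as the muscle markers were, and its ratio lay within the range of loci of like level (-0.45 to 0.47).

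The collagen receptors form the next group, each of which pairs with *Itgb1*. *Itga10*, known from cartilage, was 17.6 and 17.7 FPKM (0.01), on a locus merged with another gene. *Itga1*, common on mesenchymal and vessel cells, was 13.9 and 13.8 FPKM (-0.02), on a locus shared with *Pelo*. In both merged loci the level may include reads of the other gene. *Itga11*, a collagen receptor chain of fibroblasts, was 4.25 and 3.41 FPKM (-0.32). *Itga2*, which is also present on epithelium and platelets, was 1.88 and 2.86 FPKM (0.61), the only one of the 4 past 1.5-fold, at a level below 5 FPKM and with the sign change under equal sums over all loci given above.

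Of the chains that bind the RGD motif of matrix proteins, *Itgav* and *Itga5* were the more abundant and differed little. *Itgav*, the alpha chain of the vitronectin and latent TGF-beta receptors, was 15.5 FPKM in *miR-21+/+* and 14.9 FPKM in *miR-21-/-* (-0.05), and *Itga5*, the fibronectin receptor chain, was 10.5 and 9.80 FPKM (-0.10). *Itga2b*, the platelet chain, was 4.16 and 4.24 FPKM (0.03), and *Itgb3*, its partner and that of *Itgav*, was 6.64 and 7.39 FPKM (0.15). Of 7 platelet markers only 2 were above 5 FPKM, and none of these was past 1.5-fold, where 3.81% of all named loci were higher and 4.27% lower. The most abundant one, *Pf4*, was 39.5 and 41.4 FPKM. Among the markers below 5 FPKM, 2 were at least 1.5-fold higher in *miR-21-/-* and 1 was at 0 in *miR-21+/+*. *Itga8*, which binds nephronectin, was 2.80 and 4.44 FPKM (0.66), while *Npnt*, the nephronectin gene, was 2.73 and 1.95 FPKM (-0.48). *Itga9*, a receptor chain for tenascin that resembles *Itga4*, was 3.46 and 3.53 FPKM (0.03).

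Of the beta chains, *Itgb1*, which joins more alpha chains than any other, was the most abundant of all 37 genes, at 118 and 116 FPKM (-0.03). Its share of the summed beta chain level was 59.4% in *miR-21+/+* and 56.7% in *miR-21-/-*. *Itgb5*, which joins *Itgav* on many epithelial and stromal cells, was 38.5 and 50.2 FPKM (0.38) and went from 19.3% to 24.6% of that sum. *Itgb8*, whose dimer with *Itgav* activates latent TGF-beta, was 1.93-fold higher in *miR-21-/-*, and *Itgb6*, the other TGF-beta activating partner and an epithelial chain, was 1.34 and 1.60 FPKM (0.25). Both were below 5 FPKM in both genotypes. Of the TGF-beta genes they act on, *Tgfb1* was 16.9 and 16.6 FPKM (-0.02) and *Tgfb3* was 17.9 and 29.7 FPKM (0.73).

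The leukocyte integrins had ratios of both signs. *Itgal*, which with *Itgb2* forms LFA-1, the adhesion receptor of lymphocytes, was 4.45 FPKM in *miR-21+/+* and 1.83 FPKM in *miR-21-/-*, 2.43-fold lower. *Itgb7*, the partner of *Itga4* and *Itgae* on lymphocytes that home to gut and epithelium, was 8.90 and 4.08 FPKM, 2.18-fold lower. Both loci were marked as failed in the authors' table, so that their program gave no test result for either. *Itga4*, present on most lymphocytes and on some other cells, was 4.11 and 2.73 FPKM (-0.59), and *Itgae*, which marks lymphocytes within epithelium and a subset of dendritic cells, was 1.59 and 1.21 FPKM (-0.39). All 4 were lower in *miR-21-/-*.

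Lymphocyte markers were also lower. All 11 T cell markers were at least 1.5-fold lower, with a median log2 ratio of -2.22 and sums of 56.2 FPKM in *miR-21+/+* and 12.9 FPKM in *miR-21-/-*. *Cd3e*, a chain of the T cell receptor complex, was 7.26 and 1.22 FPKM, and the kinase *Lck* was 8.41 and 2.13 FPKM. Of 9 B cell markers all were lower and 8 were past 1.5-fold, with a median of -3.00 and sums of 110 and 54.2 FPKM. *Cd79b*, a chain of the B cell receptor complex, was 12.3 and 2.88 FPKM, and *Cd79a*, on a merged locus and the most abundant of the list, was 70.3 and 48.3 FPKM. Only 5 of the 11 T cell and 4 of the 9 B cell markers were above 5 FPKM in either genotype, and none of either list was at 0. Of all named loci above 0 in both genotypes, 10.4% were at least 1.5-fold lower. Whether lymph nodes in the mammary fat were removed before the RNA was made is not given in the sources used here. The part of the lymphocyte level in the lower *Itgal*, *Itgb7* and *Itga4* was not tested.

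Chains of myeloid cells were measured as well. *Itgam*, which with *Itgb2* forms the complement receptor of macrophages and neutrophils, was 12.3 and 13.9 FPKM (0.17), and *Itgb2*, shared by all leukocytes, was 15.7 and 13.5 FPKM (-0.22). *Itgax*, a chain of dendritic cells and of some macrophages, was 1.45 and 2.80 FPKM, 1.93-fold higher. *Itgad*, a chain of certain macrophages, was near 0 at 0.123 and 0.201 FPKM, so its ratio of 0.70 rests on very little signal. Macrophage markers were level as a list, with a median of -0.04 over 9 genes and sums of 836 and 784 FPKM. The most abundant was *Lyz2* (381 and 319 FPKM), and *Cd14* was the only one past 1.5-fold (25.4 and 42.7 FPKM). Dendritic cell markers had a median of -0.54 over 7 genes with sums of 28.5 and 19.7 FPKM. *Zbtb46*, the most abundant, was 9.16 and 6.92 FPKM, and *Ccr7*, which is also on lymphocytes, was 6.98 and 0.817 FPKM. *Itgax* therefore went in the opposite direction to the median of the dendritic list. The 6 neutrophil markers measured were all below 5 FPKM and all lower in *miR-21-/-*, with a median of -1.11 and sums of 6.83 and 4.40 FPKM. The most abundant in *miR-21+/+* was *S100a9* (2.24 and 0.695 FPKM, -1.69), and the most abundant by the mean of both genotypes was *Elane* (1.52 and 1.42 FPKM, -0.09).

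**Figure D5:**
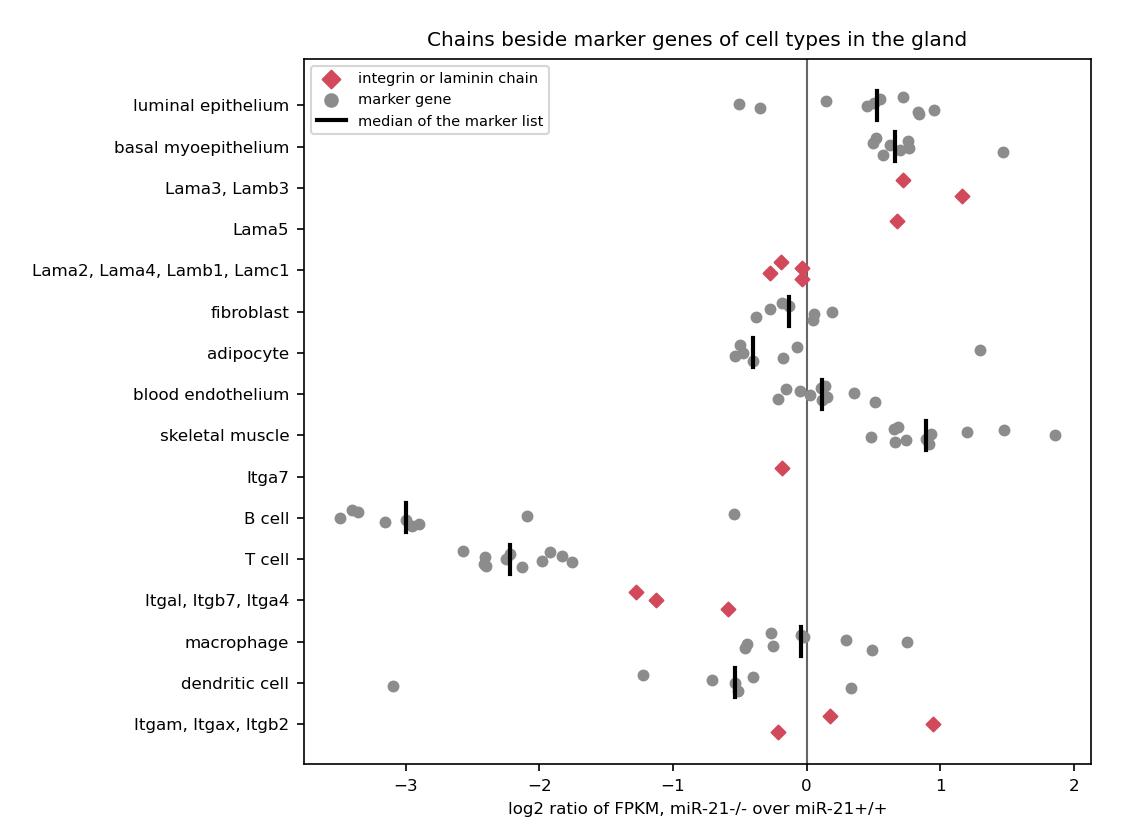
Log2 ratio of *miR-21-/-* over *miR-21+/+* for marker genes of each cell type (grey points, with a black bar at the median of the list) and for the chains set beside them (red diamonds). *Lama3* at 0.72 lies near the medians of the basal and luminal markers at 0.66 and 0.52, and *Lamb3* at 1.16 lies above both. *Itgal*, *Itgb7* and *Itga4* lie between 0 and the medians of the B and T cell markers at -3.00 and -2.22.

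Markers of stroma, vessels, fat and nerve were set beside the other laminin chains. Of all named loci above 5 FPKM, 3.81% were at least 1.5-fold higher in *miR-21-/-* and 4.27% were lower. Of 7 fibroblast markers and 10 markers of blood endothelium none was past 1.5-fold, with medians of -0.13 and 0.11 (*Cdh5*, the most abundant endothelial one, was 43.8 and 47.3 FPKM), beside -0.19, -0.03, -0.28 and -0.03 for *Lama2*, *Lama4*, *Lamb1* and *Lamc1*. Fat cell markers had a median of -0.40 and sums of 10722 and 7877 FPKM, with *Fabp4*, a fatty acid carrier, at 7677 and 5523 FPKM. *Lep*, the leptin gene, was the exception at 27.7 and 67.9 FPKM. Schwann cell markers had a median of -0.14 over 8 genes, with *Pmp22* the most abundant (137 and 115 FPKM) and with *Sox10* (16.4 and 36.1 FPKM) and *Egr2* (12.8 and 7.41 FPKM) past 1.5-fold in opposite directions. *Sox10* is known in mammary epithelium as well as in Schwann cells.

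Other components of the basement membrane had ratios of both signs. Of 21 such genes 17 were above 5 FPKM, 3 of them at least 1.5-fold higher and 2 at least 1.5-fold lower in *miR-21-/-*, where 3.81% and 4.27% of all named loci above the minimum were. *Col4a6* and *Col4a5*, the collagen IV chains that form a network of their own in epithelial and smooth muscle membranes, were 4.43 and 9.23 FPKM (1.06) and 9.005 and 14.8 FPKM (0.72). *Col7a1*, the anchoring fibril collagen below epithelia, was 8.47 and 14.3 FPKM (0.76), on a merged locus. *Col17a1*, the collagen of hemidesmosomes, was below the limit at 7.68 and 11.2 FPKM (0.55), and *Col15a1*, of vessel and muscle membranes, was 99.05 and 76.6 FPKM (-0.37). The common collagen IV chains *Col4a1* (219 and 226 FPKM) and *Col4a2* (141 and 149 FPKM) were nearly level, as was *Sparc*, a collagen-binding protein and the most abundant of the list (1449 and 1364 FPKM). The 2 lower genes were *Frem1* (8.56 and 4.19 FPKM, on a locus marked as failed) and *Egflam*, a ligand of dystroglycan (-0.60). *Col4a6* and *Frem1* passed the minimum only through the genotype in which they were higher.

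Matrix ligands of the integrins had ratios of both signs. Of 19 matrix ligands 16 were above 5 FPKM, with 3 at least 1.5-fold higher and 4 at least 1.5-fold lower. The shares of all named loci above the minimum were 3.81% higher and 4.27% lower. *Thbs1*, thrombospondin, was 20.2 FPKM in *miR-21+/+* and 48.9 FPKM in *miR-21-/-* (1.28). *Fn1*, fibronectin, the ligand of *Itga5*, was 380 and 217 FPKM (-0.81), and *Tnc*, tenascin C, a ligand of *Itga9*, was 21.5 and 7.55 FPKM (-1.51), both on loci marked as failed. The receptor chains named here, *Itga5* and *Itga9*, had log2 ratios of -0.10 and 0.03. Other receptor chains of *Fn1* and *Tnc* were not set beside them. The other lower ligands were *Postn* (1052 and 668 FPKM, -0.65) and *Emilin1* (20.3 and 12.6 FPKM, -0.69), on loci not marked as failed. The most abundant matrix ligand was *Col3a1*, a fibrillar collagen (1999 and 1654 FPKM).

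Ligands on cell surfaces were also measured. None of the 7 above 5 FPKM of 9 was past 1.5-fold, where 3.81% of all named loci above that minimum were higher and 4.27% were lower. *Cdh1*, E-cadherin, the ligand of the *Itgae* and *Itgb7* dimer, was 28.6 and 36.2 FPKM (0.34), and *Vcam1*, bound by *Itga4* dimers, was 6.55 and 8.10 FPKM (0.31). *Madcam1*, bound by the *Itga4* and *Itgb7* dimer, was low in both genotypes at 0.576 and 1.56 FPKM (1.44). These 3 ligands, chosen with values known, were higher in *miR-21-/-*, where *Itga4*, *Itgb7* and *Itgae* were lower. *Cdh1* and *Vcam1* turn to lower with equal sums over all loci. Both also lay within the 5th to 95th percentile range of loci of like level. Of all 9 cell surface ligands 7 were higher and 2 were lower, *Jam2* (-0.06) and *Jam3* (-0.20).

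Inside the cell, none of the 34 integrin adaptors and kinases above 5 FPKM was past 1.5-fold in either direction. Their median log2 ratio was 0.08 over all 36, and the most abundant, *Actn4*, an actin crosslinker, was 98.2 and 112 FPKM (0.19). *Fermt3*, the kindlin of blood cells, was the lowest of them (10.7 and 8.04 FPKM, -0.41). None of the 10 membrane partners of integrins was past 1.5-fold, the most abundant being *Cd151*, the tetraspanin that joins laminin-binding integrins (734 and 540 FPKM, -0.44), on a merged locus that may include reads of another gene. Beside both lists, 3.81% of all named loci above 5 FPKM were at least 1.5-fold higher and 4.27% were lower.

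Some chains are near neighbours in the genome. *Itga1* and *Itga2* lie 21.0 kb apart on chromosome 13 with -0.02 and 0.61, and *Itgam* and *Itgax* lie 11.1 kb apart on chromosome 7 with 0.17 and 0.95. *Itgax* and *Itgad*, 23.3 kb apart, had 0.95 and 0.70, the latter at a level near 0. Of the chains, 5 share chromosome 11 with the deleted locus, the nearest being *Itga3* at 8.41 Mb, and none of them was past 1.5-fold. On a mixed strain background, an effect of the deletion and of linked strain alleles cannot be told apart. The locus that names *Mir21* together with its host gene *Vmp1* was 42.5 FPKM in *miR-21+/+* and 68.2 FPKM in *miR-21-/-*. It measures the poly(A) host transcript and not the mature microRNA, so it is no check of the genotype labels.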

How the data were processed

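Poly(A) RNA of whole mammary tissue was sequenced in single-end runs. The authors used TopHat for alignment (mm9) and Cufflinks for quantification, and deposited a Cuffdiff table with 1 FPKM value per genotype for each of 30506 loci, which combines the 2 mice of that genotype. CASAVA is named in the submitters' processing notes, and versions, gene annotation and normalization options are not given in the sources used here. The table's own fold changes, test statistics, p-values, q-values and calls were not used, and its status column served only to mark failed loci.

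The log2 ratio of the deposited FPKM values was computed without a pseudocount, with limits of 5 FPKM, 2-fold (as in the study) and 1.5-fold, in Python 3.11.15 with pandas 2.3.3, numpy 2.4.6 and matplotlib 3.10.9. The code was tested on simulated data. Without a value per mouse, no test or interval was computed. Seed matches were sought in 1 3′ UTR per gene, the longest in GENCODE vM1. Coordinates are 1-based: 7412 gene starts matched the annotation after adding 1 and 432 as printed. Every chain was named except 1 that, like some list genes, is not reported here. The 18 marker and partner lists were written from general knowledge. From each list the text names up to 4 genes above 5 FPKM and past 1.5-fold, and the most abundant one by the mean of both genotypes. Other ligands and list genes in the text were chosen with values known. The chains and lists were chosen with earlier results of these data known.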

Additional observations from a re-analysis of the deposited data

How the results depend on the processing

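No paired analysis was possible because both mice of a genotype share 1 value, and leaving out each mouse was not run for the same reason. Of 93 alternative values for the counts, medians, lists and seed matches, 69 moved by less than the tolerance (1.5 times for a count, 0.18 log2 units for a median, the spread of all named loci above the minimum) and 24 moved by more. The 2-fold lower count, 1 as reported, was 2 with more than 1 FPKM in either genotype, with no minimum, and with a mean above 1 FPKM, and 0 where both genotypes had to exceed 5 FPKM, with a pseudocount of 1, without the failed loci and with a 3-fold limit. The 2-fold higher count, 1 as reported, was 0 with the 3-fold limit and with equal sums over all loci. The 1.5-fold higher count, 3 as reported, was 7 with more than 1 FPKM in either genotype or a mean above 1 FPKM, 8 with no minimum and 0 with equal sums over all loci. The 1.5-fold lower count, 1 as reported, was 3 under each of the lower minimums, 0 with more than 5 FPKM in both genotypes or without failed loci, and 13 with equal sums over all loci. That scaling, which lowers each ratio by 0.63, gave medians of -0.63 for integrin alpha, -0.63 for integrin beta and -0.55 for laminin chains (-0.0035, 0.0016 and 0.14 as deposited, above 5 FPKM), and took the lists with a median past 1.5-fold from 5 to 10. Restricting seed matches to the 8mer left 1 chain. With a pseudocount of 1, 5 of the 37 ratios moved, among them *Itgb8* to 0.68, *Itgax* to 0.63 and *Itgal* to -0.94, *Lamb3* was 1.04, and the medians of the B and T cell markers were -1.70 and -1.37. The minimum on the mean and the removal of failed loci were chosen after seeing the data. Without counts the precision of low levels is unknown.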

Other observations

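The rows of the table that were not used for a chain held low levels. The second row of *Itga2b* was 0.584 FPKM in *miR-21+/+* and 0.759 FPKM in *miR-21-/-*. The other rows of *Itgae* were 0.895 and 0.839 FPKM, and 0.559 and 0.185 FPKM, so all 3 rows of *Itgae* were lower in *miR-21-/-*. A shorter match to the seed, with an A after bases 2 to 7, added *Itga8* to the chains with a site, which made 5 of 37 or 13.5%, against 9.59% of all genes with a 3′ UTR.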
